A study of Mus musculus with 6 samples.

Results

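The genes described here encode the parvins, integrin-linked kinase and the cytoskeletal proteins that work with them at integrins. They are Parvb, Parva, Parvg, Ilk, Lims1, Pxn, Tln1 and Vcl. All 8 were found among the 18193 genes that had a probe set assigned to a single symbol, and they were read by 20 of the 45037 probe sets tested. Lims1 had 5 probe sets, Pxn and Tln1 had 3 each, Parva, Parvb, Parvg and Vcl had 2 each, and Ilk had 1. The group was selected on the array signals of Parvb, which were higher in Med12 KO than in controls, so the Parvb difference is given as a description with no test. The other 7 genes were taken for their place in the complex, with earlier results of these data known.

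The cells were blood-forming stem cells and early progenitors (HSPCs) of mouse bone marrow, sorted as cells without lineage markers that carried c-Kit and Sca1. The Med12 KO group came from Med12Flox;MxCre mice, in which the floxed Med12 gene, a Mediator subunit, is removed by a Cre recombinase under the interferon-responsive Mx promoter. That promoter is active in many tissues besides blood cells. The control group was taken from control mice, and the labels give neither their genotype nor whether they carried Cre. Both groups had the B6/129 background and were collected 4 days after pI:pC, the synthetic RNA that induces interferon. Ages and sexes are not given. Each group had 3 arrays. The labels do not tie an array to an animal of its own, so the p-values reflect the variation among these 6 arrays, part of which may be technical.

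Integrins span the membrane and hold cells to the matrix and to neighbouring cells. Inside the cell, talin binds the integrin beta tail and switches the receptor on, and vinculin then reinforces the link from talin to actin filaments. Integrin-linked kinase, a pseudokinase, sits at the same sites bound to an adaptor of the PINCH family (Lims1) and to a parvin, and the 3 proteins stabilise one another. Paxillin is a scaffold that binds parvins and vinculin and recruits signalling enzymes. In blood stem cells these contacts help retention in the marrow, and in platelets they serve aggregation and spreading.

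Med12 itself had signals of 89.1, 100.4 and 86.4 on the Med12 KO arrays, against 278.6, 837.4 and 441.6 on the control arrays. The groups did not overlap, although limma's adjusted p of 0.0796 missed the threshold of 0.05. The place of its single probe set relative to the deleted part is not known here. Signals are the deposited linear intensities, and differences are of log2(signal + 16), Med12 KO minus control. The median signal of all probe sets was 16.5 to 21.3 on Med12 KO arrays and 26.7 to 26.9 on control arrays. Kit, the gate gene for c-Kit, had signals of 514.8 to 617.5 in Med12 KO and 805.2 to 1425.4 in controls (log2 difference -0.89, limma adjusted p = 0.152), and the Sca1 gene Ly6a was not analysed here. The number of arrays limits the precision.

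Parvb and Parvg lie next to each other on chromosome 15, with no other protein-coding gene between them in the RefSeq order. Their RefSeq promoter windows (GRCm38.p6, + strand, 250 bases before to 50 after the annotated start) are shown because Parvb is the gene the group was chosen for and Parvg is its neighbouring paralog. Capitals mark every match, on either strand, to GATAA (the core of GATA factor motifs), CACCC (bound by KLF factors) and GGGCGG (the GC box), and no matches overlap each other in these windows. Parvg has 2 annotated starts.
Parvb, chr15:84231793-84232092: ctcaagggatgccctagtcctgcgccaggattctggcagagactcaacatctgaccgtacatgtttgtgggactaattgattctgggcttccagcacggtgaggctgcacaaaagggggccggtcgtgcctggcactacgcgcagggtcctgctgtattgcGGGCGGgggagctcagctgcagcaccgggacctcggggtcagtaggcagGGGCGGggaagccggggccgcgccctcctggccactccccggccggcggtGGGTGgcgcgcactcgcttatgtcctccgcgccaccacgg
Parvg start 1, chr15:84324470-84324769: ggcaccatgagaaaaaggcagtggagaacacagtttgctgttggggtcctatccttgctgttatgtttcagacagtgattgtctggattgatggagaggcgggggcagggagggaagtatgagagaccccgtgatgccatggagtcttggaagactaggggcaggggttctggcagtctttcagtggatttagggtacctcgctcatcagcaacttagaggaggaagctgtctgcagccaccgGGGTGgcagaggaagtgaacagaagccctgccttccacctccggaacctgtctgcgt
Parvg start 2, chr15:84325869-84326168: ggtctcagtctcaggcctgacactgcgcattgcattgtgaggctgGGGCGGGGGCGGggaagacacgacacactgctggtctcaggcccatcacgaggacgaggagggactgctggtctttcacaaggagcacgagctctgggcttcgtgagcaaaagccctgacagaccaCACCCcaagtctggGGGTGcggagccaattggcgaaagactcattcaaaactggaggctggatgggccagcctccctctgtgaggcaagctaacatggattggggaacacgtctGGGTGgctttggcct

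The Parvb window held 2 GGGCGG matches, 1 CACCC match and 0 GATAA matches. The first Parvg window held 1 CACCC match alone, and the second held 2 GGGCGG and 3 CACCC matches. Among all 32851 promoter windows of the same length, 25.4% held GATAA, 57.5% held CACCC and 35.7% held GGGCGG. The Parvb window had a GC content of 67.0% and 24 CpG dinucleotides, more CpGs than 80.0% of all windows. The Parvg windows had GC contents of 55.0% and 60.0%, with 6 and 11 CpGs, against a median of 52.7% and 7 CpGs over all windows. Of the 8 genes, 6 had a window in the table, and only the letters in these windows were searched.

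Parvb encodes beta-parvin, an actin-binding partner of integrin-linked kinase. On its brighter probe set (1422060_at), Parvb had signals of 668.7, 612.7 and 827.0 in Med12 KO, against 29.5, 72.0 and 94.2 in controls. Every Med12 KO array lay above every control array, and the lowest Med12 KO signal of 612.7 was far above the highest control signal of 94.2. The mean was 703 ± 111 in Med12 KO and 65.2 ± 32.9 in controls (SD, n = 3 each), a ratio of 10.8 and a log2 difference of 3.23 (SE 0.35). The second probe set (1438672_at) read 437.6, 382.6 and 630.8 in Med12 KO and 99.9, 48.9 and 45.6 in controls. Its groups were likewise apart, with means of 484 ± 130 and 64.8 ± 30.4 in Med12 KO and controls (SD, n = 3 each), a ratio of 7.46 and a log2 difference of 2.66 (SE 0.31). Both probe sets had their highest Med12 KO signal on replicate 3, whereas the lowest control was replicate 1 on the brighter and replicate 3 on the second. By log2 difference Parvb stood at rank 6 of 18193 genes. The spread within controls was wider than within Med12 KO on the log2 scale, with SDs of 0.22 in Med12 KO and 0.66 in controls on the brighter probe set, and of 0.36 and 0.51 on the second.

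**Figure D1:**
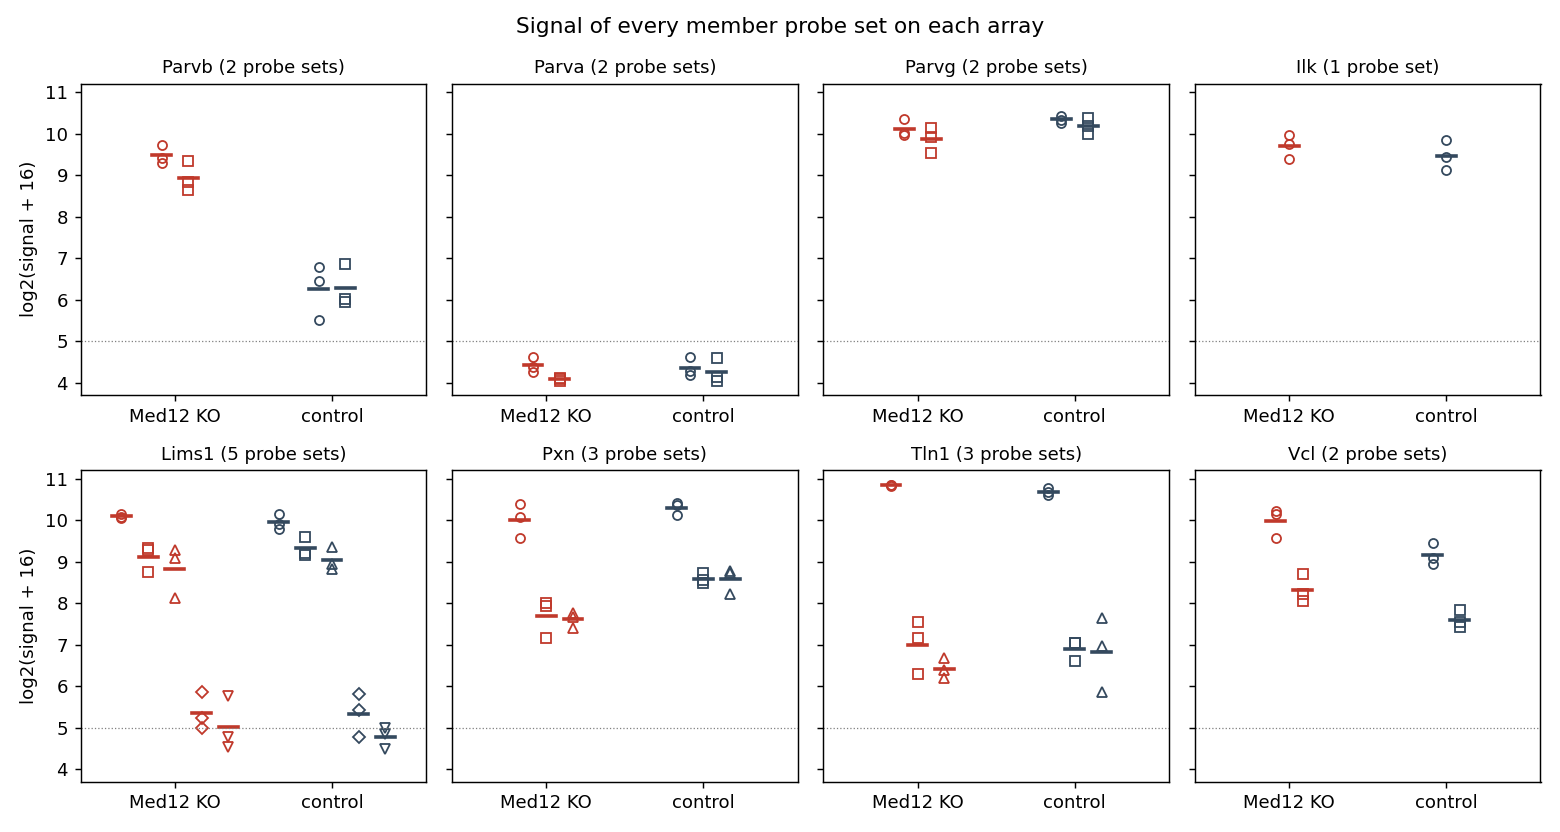
Log2(signal + 16) of all 20 probe sets of the 8 genes, 1 panel per gene, with Med12 KO arrays in red on the left and control arrays in dark blue on the right of each panel. Each symbol is 1 array, each symbol shape 1 probe set, short bars are group means (n = 3), and the dotted line is a signal of 16. The groups stand well apart for Parvb (means of 703 and 65.2 in Med12 KO and controls on its brighter probe set), while Parva stays below the dotted line in both groups.

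The sorted cells also differed in the genes of several lineages, and the part of this in the Parvb difference was not tested. In bulk RNA, fewer cells of a type and less RNA per cell cannot be told apart. Of 13 measured erythroid markers, 8 passed limma's test as higher in Med12 KO and 5 did not pass, among them Slc4a1, which had lower signals in Med12 KO with groups apart (13.0 ± 1.07 in Med12 KO and 92.8 ± 83.8 in controls, SD, n = 3 each). Their summed signal was 9116 to 14452 in Med12 KO and 3657 to 4488 in controls. Of 14 megakaryocyte and platelet markers, Itga2b, described with the integrins, rose and 13 did not pass, with summed signals of 6671 to 9139 in Med12 KO and 3969 to 5805 in controls. Differences were positive for 13 of the 14 and negative for 1, with a median of 0.72 against -0.05 for all genes. An unadjusted p under 0.05 in limma was reached by 5 of them. The erythroid marker Hba-a1 and the platelet receptor gene Gp6, each read by 1 probe set of a single symbol, were under 16 on every array. Probe sets with several symbols were not read for any marker. No marker of either list was listed at 0. All 7 granulocyte-monocyte progenitor markers fell, with sums of 565 to 1395 in Med12 KO and 8094 to 15203 in controls, as did 6 of 8 early lymphoid markers (117 to 235 against 3391 to 4264). No stroma marker of 10 and no endothelial marker of 8 passed, while 1 and 4 of them had an unadjusted p under 0.05 in limma. Stromal sums were 437 to 874 in Med12 KO and 709 to 1204 in controls, with Col3a1, Pdgfra, Dcn, Lum and Postn under 16 on every array. Endothelial sums were 966 to 1015 in Med12 KO and 1404 to 1417 in controls, with Cdh5 under 16 throughout. The endothelial markers went both ways, with 2 positive and 6 negative differences. Groups were apart for Tek (1.35) and Plvap (1.59), higher in Med12 KO, and for Pecam1 (-1.24) and Nos3 (-0.53), lower. Across all genes, 23.4% had groups apart. By gene, 0.352% of all 18193 genes passed as higher and 0.638% as lower, and 18.1% had an unadjusted p under 0.05. These marker calls rested on having all 6 arrays. Leaving out any 1 array left 0 erythroid and 0 megakaryocyte calls. It left 0 or 1 call in each of the granulocyte-monocyte and early lymphoid lists. Over the whole table, only 0 to 10 probe sets passed in those fits, against 343 with all arrays.

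The genes whose profile over the 6 arrays was most like that of Parvb were Slc38a5, Clca3a1, Kel, Rhag and Isg20. Likeness was measured as the root-mean-square difference between log2 profiles, each centred on its own mean, over 18192 genes. It was 0.35 for Slc38a5, an amino acid transporter gene, 0.42 for Clca3a1, 0.45 for Kel, the Kell blood group gene, 0.51 for Rhag, the Rh-associated glycoprotein gene, and 0.56 for Isg20, an interferon-inducible exonuclease gene. The median over all genes was 1.71. Slc38a5 had signals of 167.8, 159.7 and 276.7 in Med12 KO and 1.2, 15.5 and 46.7 in controls. Slc38a5 shared its highest Med12 KO array (replicate 3) and lowest control array (replicate 1) with the brighter Parvb probe set, the one used to measure likeness. On the second Parvb probe set, control replicate 1 was instead the highest control (99.9). The other 7 genes of the complex were farther from Parvb, from 1.32 for Vcl to 1.83 for Pxn. All profiles come from the same 6 arrays in 2 groups, so a gene can be near Parvb only with a group difference of similar size.

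**Figure D2:**
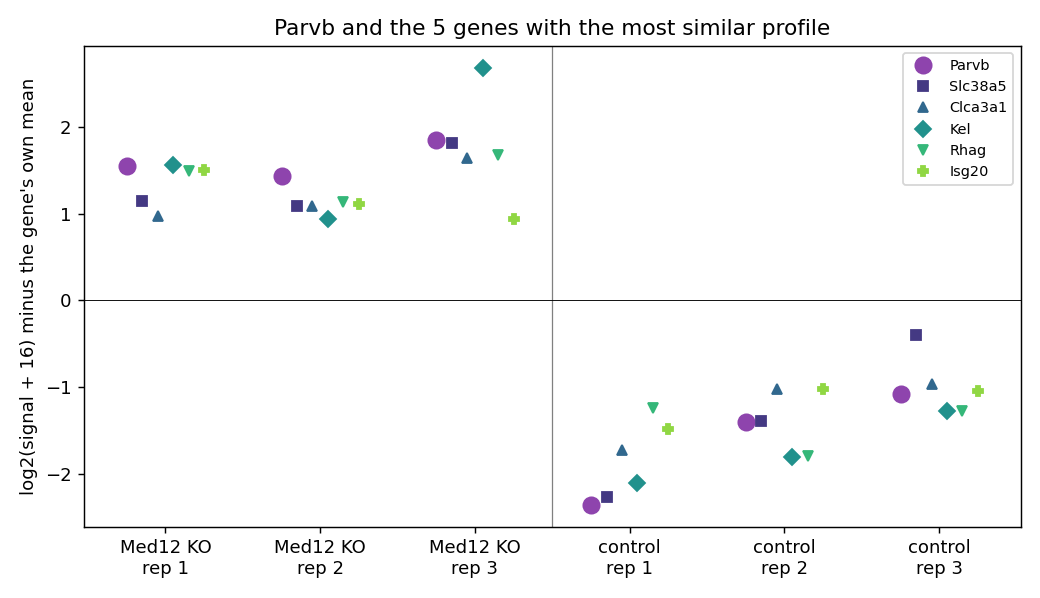
Log2(signal + 16) of Parvb (large purple circles) and its 5 nearest genes on each of the 6 arrays, after subtracting each gene's own mean; Med12 KO arrays are left of the vertical line and control arrays right of it. All 6 genes are above 0 on the 3 Med12 KO arrays and below 0 on the 3 control arrays, and Kel has the highest point, on Med12 KO replicate 3.

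The other parvins were Parvg and Parva. Parvg encodes gamma-parvin, the parvin of blood cells. On its brighter probe set (1416876_at) Parvg had signals of 1017.0, 1284.3 and 988.1 in Med12 KO, against 1211.3, 1276.0 and 1369.5 in controls. The groups overlapped, and the log2 difference was -0.23 (SE 0.15; 95% interval -0.60 to 0.13; limma adjusted p = 0.52). The second Parvg probe set (1416875_at) read 1105.1, 948.0 and 727.5 in Med12 KO and 1150.8, 1005.0 and 1314.0 in controls. It too overlapped, with a log2 difference of -0.33 (95% interval -0.81 to 0.16; limma adjusted p = 0.5). The sign of the brighter Parvg probe set turned to 0.04 after each array was centred on its median.

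Parva, which encodes alpha-parvin, the widely expressed parvin of adherent cells, gave signals under 16 on all 6 arrays with both of its probe sets. They were 4.9, 8.6 and 3.1 in Med12 KO and 3.5, 8.5 and 2.1 in controls on 1431375_s_at. On 1416818_at they were 0.5, 1.2 and 0.9 in Med12 KO and 0.5, 1.5 and 8.1 in controls. Signals this low leave the added 16 to set the log2 values, and the differences of 0.06 and -0.18 (limma adjusted p = 0.917 and 0.695) describe little more than that floor.

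The kinase and its PINCH adaptor gave overlapping groups on every probe set. Ilk (1449942_a_at) had signals of 844.7, 985.3 and 655.0 in Med12 KO and 546.3, 898.4 and 674.0 in controls. The arrays of the groups interleaved, and the log2 difference was 0.23 (SE 0.24; 95% interval -0.35 to 0.82; limma adjusted p = 0.711). Lims1, which encodes PINCH1, had its brightest probe set (1418230_a_at) at 1071.7, 1123.9 and 1047.5 in Med12 KO, against 956.3, 867.1 and 1122.7 in controls. Control replicate 3 lay within the range of the Med12 KO arrays, and the log2 difference was 0.14 (95% interval -0.20 to 0.48; limma adjusted p = 0.691). Of the other 4 Lims1 probe sets, 1418231_at and 1418232_s_at were at -0.20 and -0.21, and 1443947_at and 1441411_at, both dim, were at 0.02 and 0.24. The sign thus differed among Lims1 probe sets, and their adjusted p values in limma ran from 0.691 to 0.989.

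Paxillin gave lower signals in Med12 KO on 2 of its 3 probe sets, without passing the threshold. On 1424027_at Pxn had signals of 186.5, 201.7 and 154.3 in Med12 KO, against 410.0, 421.9 and 285.5 in controls. The groups did not overlap, and the means were 181 ± 24.2 in Med12 KO and 372 ± 75.6 in controls (SD, n = 3 each). The log2 difference was -0.97 (SE 0.20; 95% interval -1.45 to -0.49), with an unadjusted p of 0.00269 and an adjusted p of 0.102 in limma. On 1426085_a_at the signals were 229.9, 242.8 and 127.7 in Med12 KO and 408.1, 362.2 and 342.4 in controls. These groups were apart as well, with a log2 difference of -0.88 (SE 0.25; limma adjusted p = 0.184). The brightest Pxn probe set (1456135_s_at) is of a type that can bind transcripts of more than 1 gene. Parva 1431375_s_at and Lims1 1418232_s_at are of this type too. The brightest Pxn probe set read 1331.2, 744.3 and 1075.2 in Med12 KO and 1315.2, 1362.0 and 1103.9 in controls. There the groups overlapped, because Med12 KO replicate 1 was as high as the controls, and the log2 difference was -0.29 (95% interval -0.87 to 0.29; limma adjusted p = 0.625). The sign of all 3 Pxn probe sets was negative under every setting tried.

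Besides Parvb, vinculin was the gene with groups apart on all of its probe sets, and its signals were higher in Med12 KO. On 1416156_at Vcl had signals of 1185.3, 741.5 and 1125.3 in Med12 KO, against 681.4, 531.8 and 476.6 in controls. The means were 1017 ± 241 in Med12 KO and 563 ± 106 in controls (SD, n = 3 each), a ratio of 1.81 and a log2 difference of 0.82 (SE 0.24; 95% interval 0.24 to 1.40). Its adjusted p of 0.185 in limma did not pass. On 1416157_at Vcl had 248.8, 281.3 and 400.5 in Med12 KO and 212.9, 172.6 and 156.2 in controls, a log2 difference of 0.71 (SE 0.22; limma adjusted p = 0.202). All Med12 KO arrays were above all control arrays on both probe sets, and the difference stayed between 0.52 and 1.10 over both probe sets and all settings tried.

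Talin 1, the main talin of blood cells, was nearly level on its bright probe set. Tln1 (1448402_at) had signals of 1848.4, 1850.1 and 1806.3 in Med12 KO and 1636.6, 1543.4 and 1745.0 in controls. The groups did not overlap, but the gap between the lowest Med12 KO array and control replicate 3 was small, and the log2 difference was 0.16 (SE 0.11; 95% interval -0.12 to 0.44; limma adjusted p = 0.568). The dimmer Tln1 probe sets overlapped between groups. They were at 0.10 (1436042_at) and -0.40 (1457782_at), with adjusted p values of 0.934 and 0.738 in limma, and both signs turned without control replicate 3 (-0.05 and 0.01).

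Counted together, 0 of the 18 probe sets of the 7 genes other than Parvb passed limma's test, and 4 of them, those of Pxn and Vcl named above, had an unadjusted p under 0.05, as did 15.7% of all probe sets. Of all probe sets 0.762% passed, 0.22% as higher and 0.542% as lower in Med12 KO, so a count of 0 among 18 is near the background. Groups did not overlap for 5 of the 18, or 27.8%, which is near the 20.9% of all probe sets. Of these 5, 3 were higher and 2 were lower in Med12 KO, against 7.61% and 13.3% of all probe sets. The differences were positive for 9 and negative for 9, with a median of -0.08 against -0.07 for all probe sets. Median centring of the arrays moved that overall median to 0.20, and quantile normalization moved it to 0.01.

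**Figure D3:**
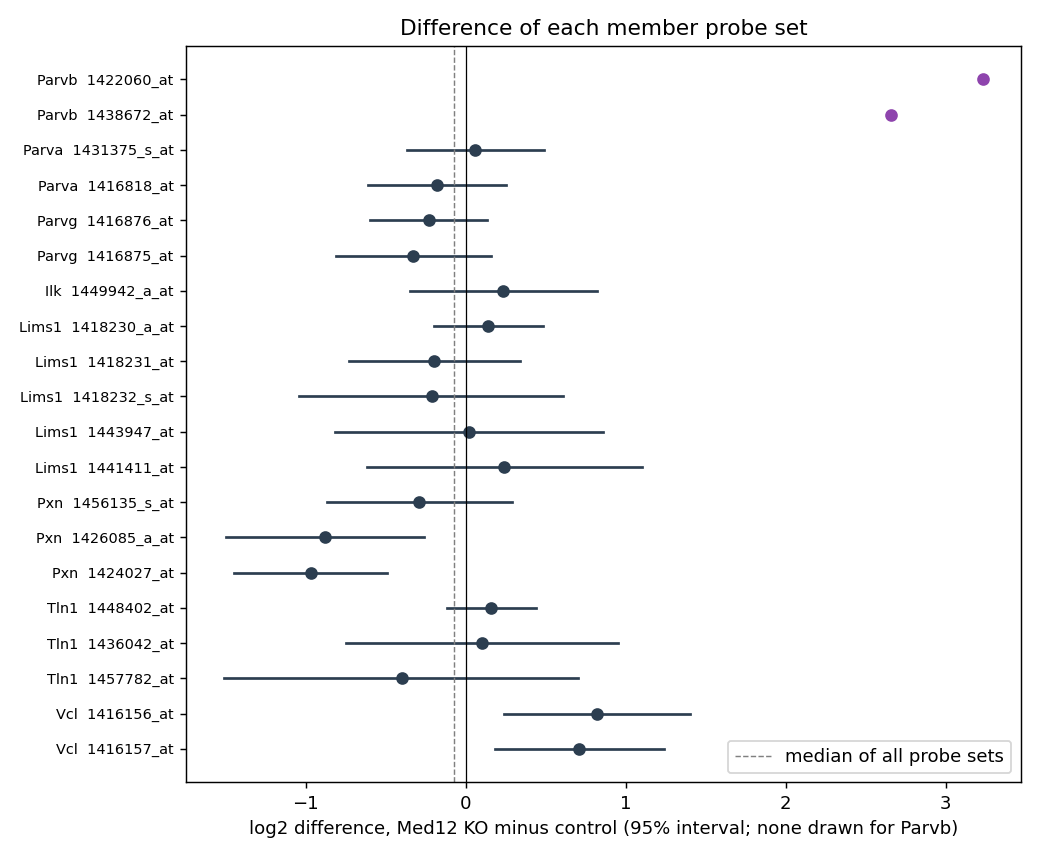
Log2 difference (Med12 KO minus control) of each of the 20 probe sets, with its 95% interval from limma for the 18 probe sets other than those of Parvb; Parvb is in purple, with no interval drawn, and the dashed line is the median of all probe sets (-0.07). The 2 Parvb probe sets lie at 3.23 and 2.66, those of Vcl at 0.82 and 0.71, 2 of Pxn at -0.97 and -0.88, and the other 14 have intervals that include 0.

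Adhesion genes around the complex were summarised in 4 lists, with 1 probe set per gene. The background was 0.989% of genes passing, 18.1% at an unadjusted p under 0.05 and 23.4% with groups apart, and the median over all genes was -0.05. Among 11 neighbours of integrin-linked kinase, 0 passed limma's test, 2 had an unadjusted p under 0.05, and the median was -0.03. Rsu1, which encodes a partner of PINCH1, had signals of 1744.7, 1773.3 and 2020.8 in Med12 KO and 1224.8, 1033.9 and 1063.7 in controls (log2 0.73; limma adjusted p = 0.0855). Its groups were apart, although its dim second probe set was at -0.08. Arhgef6, which encodes the Rac and Cdc42 exchange factor alpha-PIX, a binding partner of beta-parvin, had 497.9, 389.2 and 234.3 in Med12 KO and 738.1, 583.7 and 519.0 in controls. Its difference was -0.74 (limma adjusted p = 0.312). Nck2, an adaptor that binds PINCH1, was at 0.49 (limma adjusted p = 0.326). The kindlin of blood cells, Fermt3, named after its values were seen, was at 0.15 with overlapping groups.

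Of 15 genes on the talin and vinculin side, 0 passed, 5 had an unadjusted p under 0.05 in limma, 11 had negative differences and the median was -0.40. Groups were apart for 2 genes that were higher and 7 that were lower in Med12 KO, against backgrounds of 9.85% and 13.5%. Tns3, a tensin that links integrin tails to actin, had signals of 443.6, 336.4 and 343.4 in Med12 KO and 1020.5, 663.9 and 850.6 in controls. Those groups were apart by a wide margin, with a log2 difference of -1.13 (limma adjusted p = 0.0853). Evl, an Ena/VASP protein that promotes actin filament growth, had 103.2, 38.6 and 22.8 in Med12 KO against 434.3, 152.2 and 338.8 in controls (log2 -2.24; limma adjusted p = 0.135). Apbb1ip, which encodes the Rap1 effector RIAM that brings talin to integrins, was at -0.47 (limma adjusted p = 0.193). Of 16 genes on the paxillin side, 0 passed, 2 had an unadjusted p under 0.05 in limma, and 8 differences were positive and 8 negative. Those with an unadjusted p under 0.05 were Git2 (-0.54; limma adjusted p = 0.103) and Git1 (-0.35; limma adjusted p = 0.26), which encode paxillin-binding GTPase-activating proteins. Git2 had signals of 1045.7, 1041.7 and 963.1 in Med12 KO and 1521.5, 1435.0 and 1500.0 in controls, so its groups were apart like those of the paxillin probe sets 1424027_at and 1426085_a_at. Git2 passed under 1 setting only, with 64 added before log2 (-0.52, limma adjusted p = 0.0408). After median centring it was at -0.27 (limma adjusted p = 0.348). Ptpn12, a phosphatase that binds paxillin, was at 0.65 with overlapping groups (limma adjusted p = 0.372).

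Of 19 integrin subunit genes, 1 rose, 0 fell and 18 did not pass, with 9 at an unadjusted p under 0.05 in limma and a median of 0.08. Itga2b, the alpha chain of the platelet fibrinogen receptor, had signals of 896.9, 1024.4 and 1251.1 in Med12 KO, against 276.7, 360.4 and 407.4 in controls. The groups were well apart, and the log2 difference was 1.56 (SE 0.20; limma adjusted p = 0.0431). That call was lost without any 1 of the 6 arrays (adjusted p = 0.093 to 0.146 in limma), with differences of 1.41 to 1.68. Over the whole table, only 0 to 10 probe sets passed in those fits, against 343 with all arrays. Its partner chain Itgb3, named after its values were seen, was at 0.73 (limma adjusted p = 0.313). Itgb2, the common beta chain of leukocyte integrins, was at 0.93 (limma adjusted p = 0.077), Itgb5 at -1.01 (0.142) and Itgax, the dendritic cell alpha chain, at -0.92 (0.165). Itgax was dim, with signals of 1.2 to 13.3 in Med12 KO and 17.9 to 32.8 in controls. Its difference depended on the offset, at -1.65 with 4 added and -0.36 with 64 added. Itgb2 passed after median centring (1.20; limma adjusted p = 0.0367). In the fit on gene means over all probe sets of a gene, Itgb2 (adjusted p = 0.0391 in limma), Itgb5 (0.0475), Tns3 (0.0372) and Evl (0.0471) passed. The share of all genes passing in that fit was not counted, so these calls have no background beside them. The summed signal of the list, in which bright genes weigh most, was 7075 to 7430 in Med12 KO and 4410 to 5544 in controls. Differences were positive for 11 subunits and negative for 8. Groups were apart for 5 that were higher and 3 that were lower in Med12 KO, against backgrounds of 9.85% and 13.5%.

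**Figure D4:**
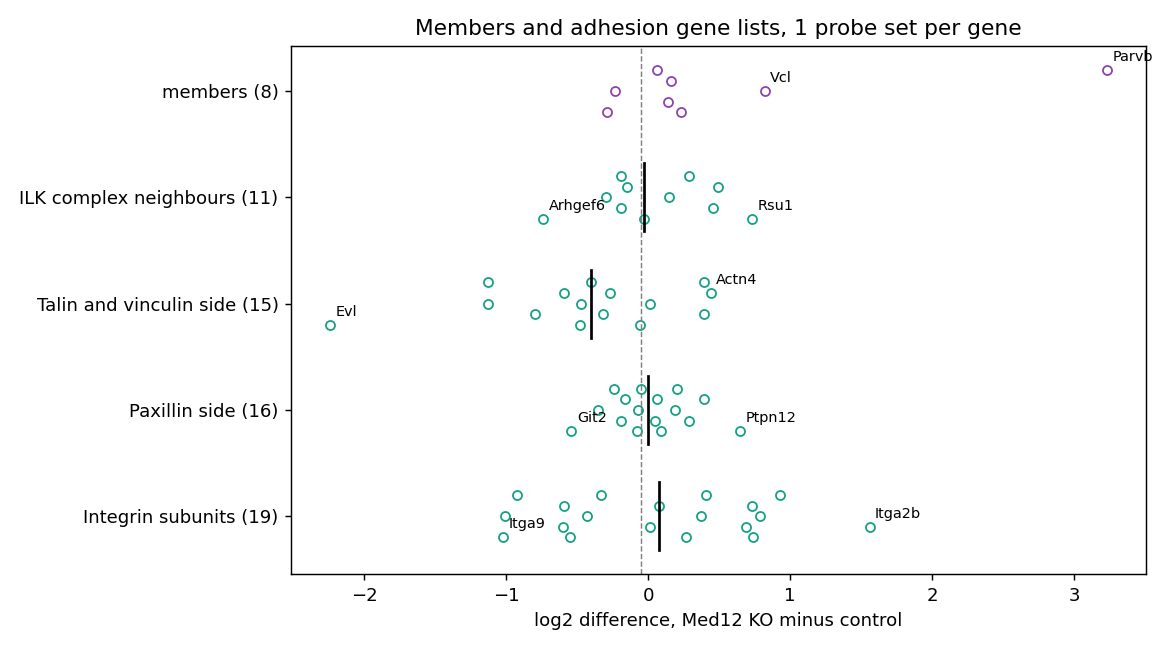
Log2 difference (Med12 KO minus control) of the 8 genes, each by its brightest probe set, and of the genes in 4 adhesion lists; each circle is 1 gene, black bars are list medians and the dashed line is the median of all genes (-0.05). Parvb, for whose rise the group was chosen, lies at 3.23. Among the list genes, Itga2b is the highest at 1.56 and Evl the lowest at -2.24.

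The neighbours of Parvb and Parvg on chromosome 15 were looked at after the values were seen. Samm50, Pnpla3 and Pnpla5 precede the pair, and Shisal1, Rtl6 and Prr5 follow it in the RefSeq order of protein-coding genes. None of these 6 passed limma's test, and 1, Prr5, had an unadjusted p under 0.05, against 0.989% and 18.1% of all genes. Samm50, a mitochondrial outer membrane assembly gene next to Parvb, had signals of 2732.5, 3083.9 and 2974.3 in Med12 KO and 2686.6, 2103.6 and 2652.1 in controls, a log2 difference of 0.25 (limma adjusted p = 0.493), with groups apart by a small gap. Prr5 was at -2.13, with 29.1, 37.7 and 16.2 in Med12 KO against 83.5, 109.3 and 513.0 in controls (limma adjusted p = 0.205). The other 4 lay between -0.44 and -0.20, and Pnpla5 and Shisal1 were under 16 on every array. Groups were apart, lower in Med12 KO, for Prr5, Pnpla3 and Pnpla5, and they overlapped for Shisal1 and Rtl6. Across all genes, 9.85% had groups apart as higher and 13.5% as lower.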

How the data were processed

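Total RNA (5 ng) was amplified and biotin-labelled, per the labels' protocols. The authors deposited 1 signal intensity per probe set and array, on a linear scale from 0 to 11133.8. The submitters' processing notes name RMA, which gives log2 values without zeros, so the method behind these intensities is not given in the sources used here. Of 45101 probe sets, 64 controls were left out. The platform annotation gave 34945 of the rest 1 gene symbol, 932 several and 9160 none; genes were named only from those with 1. All 6 value columns were used. Differences of log2(signal + 16) were fitted over all 45037 probe sets in R 4.3.3 using limma 3.58.1 (lmFit, eBayes; two-sided test, Benjamini-Hochberg over the whole table, threshold 0.05); the offset understates changes of dim genes. The steps were tested on simulated data. Where 1 probe set stands for a gene, it is the one with the highest mean log2 value. The members, lists and settings were chosen with earlier results of these data known. Named list genes were those past the threshold plus the 3 with the smallest p in each adhesion list. Some of the listed genes were not analysed here. Alternatives were other offsets, median centring, quantile normalization and filters on dim probe sets. Others were a trended prior, array weights, a replicate block and leaving out each array. Gene means over probe sets were examined for the named adhesion list genes only.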

Additional observations from a re-analysis of the deposited data

How the results depend on the processing

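The number of probe sets passing limma's test, 343, was 693 after median centring, 715 without the dimmest 25% and 756 without the dimmer 50% of probe sets. It ranged from 0 to 10 when 1 array was left out; the zeros came without Med12 KO replicate 1 (6219 at an unadjusted p under 0.05) and without Med12 KO replicate 3 (5340). Calls that were higher in Med12 KO made up 28.9%, and 62.2% after median centring. With the replicate number as a block 0 passed (6752 at an unadjusted p under 0.05). The labels do not say whether the replicate numbers pair arrays. Deviations of same-numbered arrays correlated at 0.019, 0.019 and 0.0019, and no array correlated best with its own number. With 3 arrays per group, such correlations cannot decide whether same-numbered arrays were paired. The Parvb difference ranged from 2.59 to 3.50 on its brighter probe set and from 2.09 to 2.95 on the second, and the lowest values came with 64 added before log2, which compresses differences by construction. None of the 18 other probe sets passed under any setting; the lowest adjusted p was 0.0784, for Pxn (1424027_at).

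Signs turned in 14 of 265 values for these 18. After median centring Parva (1416818_at) was at 0.09, Parvg (1416876_at) at 0.04, and Lims1 (1418231_at and 1418232_s_at) at 0.08 and 0.06. Lims1 1443947_at was at -0.03 with array weights. Without Med12 KO replicate 1 it was at -0.22 and Tln1 1436042_at at -0.17, without Med12 KO replicate 2 Parva 1431375_s_at was at -0.04 and Lims1 1441411_at at -0.13, and without Med12 KO replicate 3 Lims1 1418232_s_at was at 0.14. Without control replicate 3, Parva 1431375_s_at was at -0.03, Lims1 1443947_at at -0.26, Tln1 1436042_at at -0.05 and Tln1 1457782_at at 0.01. Over the arrays left out in turn, Parva 1431375_s_at reached 0.19, Lims1 1418232_s_at -0.44, Lims1 1443947_at 0.26, Lims1 1441411_at 0.49, Tln1 1436042_at 0.46 and Tln1 1457782_at -0.88 at the other end. The cause was not tested. The call for Itga2b was also lost with offsets of 4 and 64, after quantile normalization and with the block (adjusted p = 0.0504 to 0.153 in limma).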

Other observations

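Some adhesion genes had several probe sets that moved together without passing limma's test on each. Of all probe sets, 13.3% had groups apart as lower and 7.61% as higher in Med12 KO. The genes below were named for small p values in these same data, so the likeness of their probe sets is only a description. Itgb5 had 4 probe sets, all lower in Med12 KO with groups apart, at log2 differences of -1.01 to -1.36, and its mean over them was -1.19. Evl also had 4, all lower with groups apart, at -0.41 to -2.24, with a mean of -1.25. Tns3 had 2, at -1.13 and -1.70, with a mean of -1.41. Some of these probe sets were under 16 on every Med12 KO array. They were those of Itgb5 at -1.32 and -1.36, of Evl at -1.05 and -0.41, and of Tns3 at -1.70. At such signals the added 16 largely sets the log2 values, so the sizes of these differences depend on it. Itgb5, Evl and Tns3 passed in the fit on gene means (limma adjusted p = 0.0372 to 0.0475). That fit includes the dim probe sets, and it also tests 18193 genes in place of 45037 probe sets. The share of all genes passing in it was not counted. Itgb2, which has 1 probe set and so an unaltered difference of 0.93, passed there as well (limma adjusted p = 0.0391). Ptpn12 had 4, all with positive differences, of which 2 had groups apart (0.86 and 1.19). Git2 had 5, and the pair with signals above 100 on every array was at -0.54 and -0.99, while the other 3 were dim with overlapping groups.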
